A study of Schizosaccharomyces pombe with 2 samples.

Results

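Moderately transcribed one-stranded windows are 1-kb stretches of fission yeast (Schizosaccharomyces pombe) chromosome 2 in which wild-type cells gave RNA signal of medium strength from 1 DNA strand and little from the opposite strand. There were 613 of them among 1901 windows of the long tiled block, and among 2197 windows on the whole array. They were chosen by wild-type signal alone, on both arrays together. The strand with the medium signal is called the transcribed strand, and the dim one the quiet strand. RNA of asf1-1 cells was hybridised on 1 array and RNA of ∆hip1 cells, in which hip1 is deleted, on another, each labelled red (Cy5) and set beside wild-type RNA labelled green (Cy3). All cultures grew exponentially in rich medium (YEA) at 30 °C, and ribosomal RNA was depleted before labelling. With 1 array per mutant and no dye swap there was no replicate, so no test was run, and mutant and dye cannot be told apart.

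Asf1 is a chaperone of histones H3 and H4, which it passes to other assembly factors, and it is essential for growth in fission yeast, so asf1-1 is a mutant allele and not a deletion. Hip1 is a subunit of HIRA, a complex that deposits H3 and H4 outside DNA replication. Nucleosomes are removed and put back as RNA polymerase II passes, and in yeasts the loss of factors that restore them is known to let transcription start within genes and on the strand opposite a gene. A 1-kb window in which wild-type RNA comes from 1 strand is therefore a place where RNA of the opposite strand can be seen against a low baseline.

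The arrays carried 43993 probes of the study, each strand being sampled about every 100 bp, so that a window had a median of 10 probes per strand. Between 78.9% and 93.9% of probes were well above background in the 4 channels, and 0 spots were saturated. Strand and position were read from the array files, and the sources used here do not name their genome build. Strand follows the order of the coordinates there, and if a probe holds the letters of that strand or their complement is not stated. Upstream and downstream, starts and ends, and the direction of distances all rest on that reading, and would turn round if the probes detect the complement. Cross-hybridisation between like sequences was not tested, as no probe sequence was used here. Whole cultures were measured, so a large change in some cells and a small one in all cells cannot be told apart. No probe is tied to a gene in the files. Windows are therefore given by position, no gene is named, and the labels were not checked against the probes of asf1 and hip1. "Euchromatic" rests on position only, as no chromatin mark was analysed here: the chromosome 2 block from 1000001 to 3050000 was used without the intervals from 1590001 to 1660000, 2100001 to 2160000, 1812001 to 1821000 and 1964001 to 1974000.

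The wild-type values that chose the windows are a description. For each strand the median over probes of the log2 background-subtracted green signal was averaged over both arrays, which gave 3802 values with a median of 9.022 and a 75th percentile of 12.322. The transcribed strand of a chosen window lay between those values (median 11.30, range 9.02 to 12.32), and the quiet strand lay below the lower one (median 6.98, range 4.56 to 9.02). The strands of a window were 4.16 log2 units apart at the median, or 17.9-fold, with a range of 0.34 to 7.32. The quiet strand was thus far dimmer in most windows, but in a few near the cut the strands were nearly equal.

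Windows next to the cuts differed little from those across them. At the upper cut, the minus strand of the window from 1584001 (12.321) and the plus strand of that from 2489001 (12.319) were inside, and the plus strand from 2735001 (12.322) and the minus strand from 2908001 (12.323) were outside, among the highly transcribed windows. At the lower cut, the minus strands from 2558001 (9.023) and 2652001 (9.046) were inside, and those from 2913001 (9.015) and 1486001 (9.013) were outside, in windows silent on both strands. The quiet plus strands from 2498001 (9.022) and 1890001 (9.020) were inside, and the dimmer plus strand from 2724001 (9.023) and minus strand from 1284001 (9.035) were outside, in windows transcribed on both strands.

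**Figure D1:**
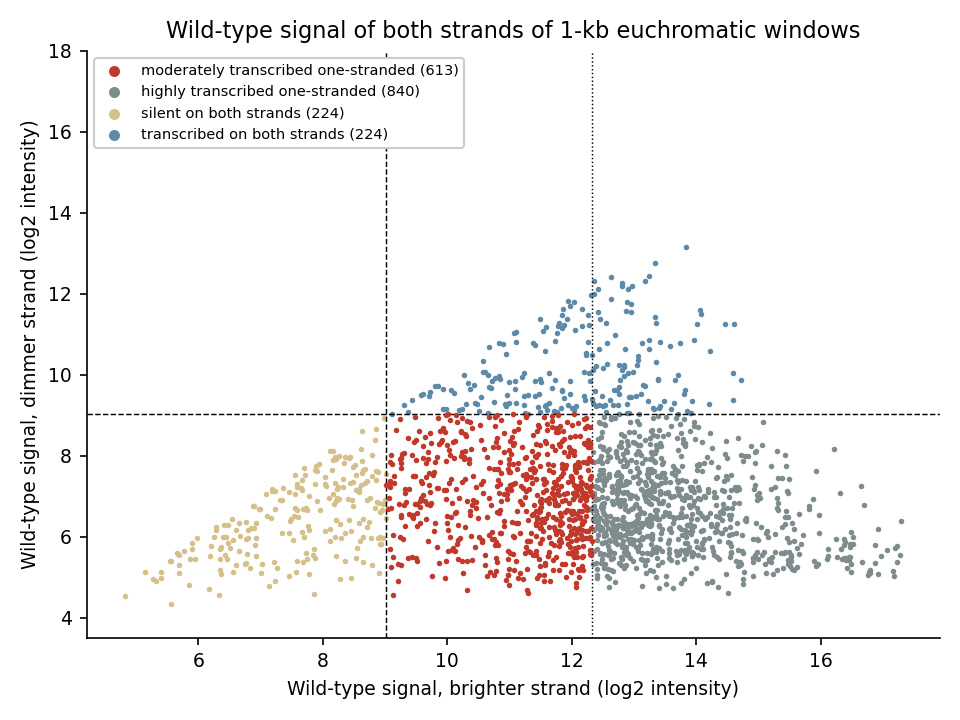
Each point is a 1-kb window, with the wild-type log2 intensity of its brighter strand on the x axis and that of its dimmer strand on the y axis, averaged over both arrays. Dashed lines mark the median cut (9.022), the dotted line the 75th percentile cut (12.322), and the 613 red points fill the field between them below the dashed horizontal line.

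The chosen windows were spread over the block and over both strands. The transcribed strand was plus in 311 and minus in 302. They formed 346 runs of adjoining windows, of which 206 were lone windows and 63 held 3 or more. The longest run held 11 windows, from 1899001 to 1910000, with 9 transcribed on the minus strand and 2 on the plus strand. Of 267 adjoining pairs, 223 were transcribed on the same strand.

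Following the transcribed strand, the next window downstream was highly transcribed and one-stranded for 251 of the 613 and of the moderate class for 249, while 33 led into a window silent on both strands. Upstream, 285 neighbours were of the moderate class, 170 highly transcribed, 101 silent on both strands and 56 transcribed on both strands. Windows silent on both strands thus lay more often on the side read here as upstream, which would be downstream under the other reading of the probes. In 195 windows (31.8%) every probe of the transcribed strand was at or above the lower cut, which is called filled here, and in 418 (68.2%) some probes fell below it. Within a window the wild-type signal of the transcribed strand spanned a median of 5.51 log2 units from the dimmest to the brightest probe, so the signal was uneven inside most windows.

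RNA from the quiet strand was higher in both mutants than in wild type. Window ratios are medians over probes of loess-normalized log2 mutant over wild type, and all 613 windows had one on each strand. On the quiet strand the ratio in asf1-1 had a lowest value of -2.43, a median of 0.55 and a highest value of 3.55. In ∆hip1 these were -1.75, 0.40 and 4.88. At least 2-fold higher were 199 windows (32.5%) in asf1-1, beside 13.6% of all windows and strands of the array, and 180 (29.4%) in ∆hip1, beside 12.7%. At least 2-fold lower were 19 in asf1-1, beside 7.42% of the whole array, and 14 in ∆hip1, beside 3.61%. The wild-type signal that chose the windows is also the divisor of each ratio, so these counts are not read against the background.

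The higher quiet strand was also seen where the choice did not use the wild-type signal of the same array. Windows chosen by the same rule from the other array's wild-type channel alone had a quiet-strand median of 0.59 in asf1-1 (601 windows) and 0.41 in ∆hip1 (614 windows). No source used here says if 1 wild-type extract served both arrays, or if cultures were separate. Windows chosen from the mutant channel of the other array, with no wild-type value, had quiet-strand medians of 0.40 in asf1-1 (464 windows) and 0.24 in ∆hip1 (439 windows), and their transcribed strands had -0.23 and -0.15. With that choice the signs were the same on both strands, and the medians were nearer 0.

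The transcribed strand was lower in both mutants. In asf1-1 its ratio had a lowest value of -2.52, a median of -0.37 and a highest value of 4.30, and in ∆hip1 -2.45, -0.26 and 3.02. It was at least 2-fold lower in 111 windows (18.1%) in asf1-1 and in 54 (8.81%) in ∆hip1, beside 7.42% and 3.61% of the whole array. It was at least 2-fold higher in 27 (4.4%) and 16 (2.61%), beside 13.6% and 12.7%. Of the windows past 2-fold in ∆hip1, 22.9% on the transcribed strand and 92.8% on the quiet strand were higher. Under other scalings these shares were 10.8% and 81.9% (scanner log ratio) or 10.4% and 82.3% (deposited series table), and the first was 12.6% after median centring. Windows transcribed on the plus strand and on the minus strand were alike: the quiet-strand medians in asf1-1 were 0.50 and 0.58, and in ∆hip1 0.38 and 0.45.

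The strands of 1 window differed in ratio. The quiet strand exceeded the transcribed strand in ratio in 468 windows (76.3%) in asf1-1 and in 460 (75%) in ∆hip1. Over all 613 windows the median difference was 0.92 and 0.76. In the highly transcribed one-stranded windows the shares were like these, at 75.8% and 75.4%, with smaller median differences of 0.60 and 0.49 (832 windows). In asf1-1, 52 windows (8.48%) had the quiet strand at least 2-fold higher and the transcribed strand at least 2-fold lower. In ∆hip1 24 (3.92%) did. The reverse was seen in 2 windows (0.326%) in asf1-1 and 0 in ∆hip1. Both strands were at least 2-fold higher in 4 windows (0.653%) in asf1-1 and 3 (0.489%) in ∆hip1, and both lower in 2 (0.326%) and 3 (0.489%). The shares of such pairs over the whole array were not taken, so these counts are not read against a background. Where the quiet strand was at least 2-fold higher, the transcribed strand of the same windows had a median of -0.54 in asf1-1 (199 windows) and -0.41 in ∆hip1 (180 windows). Both ratios of a window divide by wild-type signals that the rule set apart. With windows chosen from the mutant channel of the other array, the median difference between the strands was 0.63 in asf1-1 and 0.46 in ∆hip1.

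A lower bar of 1.5-fold gave more windows in each direction. The quiet strand was then higher in 296 windows (48.3%) in asf1-1, beside 24.9% of the whole array, and in 257 (41.9%) in ∆hip1, beside 21.2%. It was lower in 61 (9.95%) and 50 (8.16%), beside 19.2% and 12.5%. The transcribed strand was lower in 217 windows (35.4%) in asf1-1, beside 19.2% of the array, and in 158 (25.8%) in ∆hip1, beside 12.5%.

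**Figure D2:**
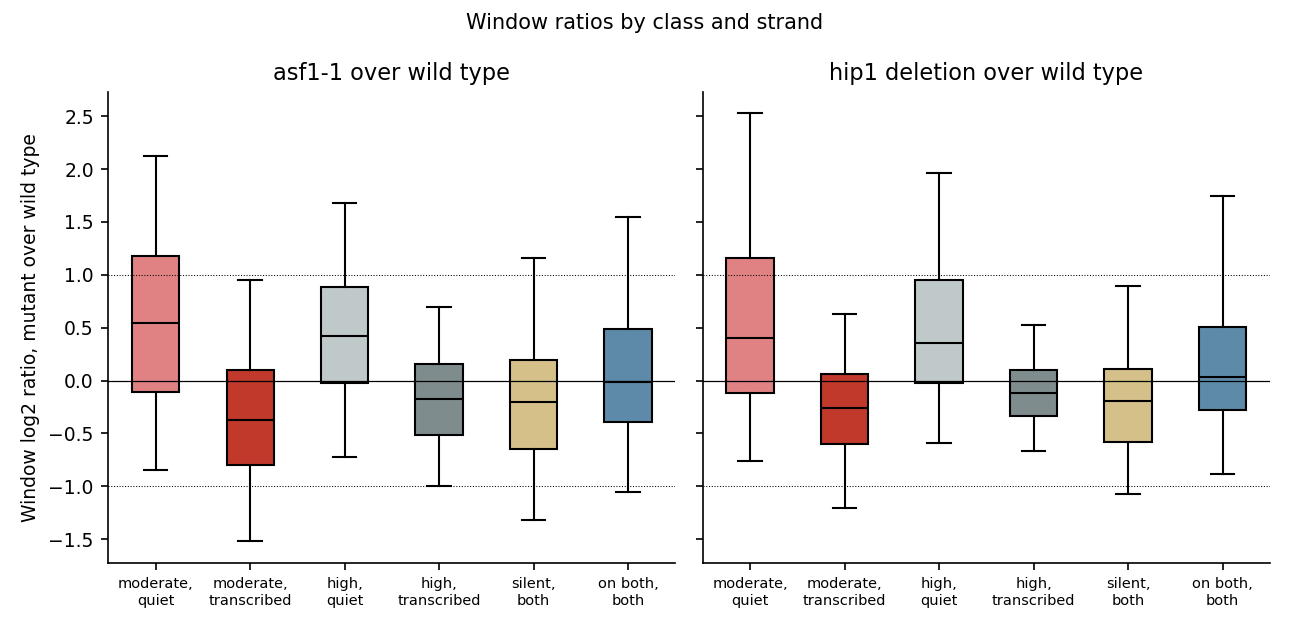
Window log2 ratios of mutant over wild type (y axis) by class and strand (x axis), for asf1-1 (left) and ∆hip1, marked hip1 deletion (right). Boxes span the quartiles with the median as a line, whiskers reach the 5th and 95th percentiles, and dotted lines mark 2-fold: the quiet strand of the moderate class lies highest (medians 0.55 and 0.40) and its transcribed strand lowest (-0.37 and -0.26).

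Highly transcribed one-stranded windows had medians of the same signs. The 613 moderate windows had a transcribed-strand median of -0.37 in asf1-1, against -0.17 in the 840 highly transcribed windows, and -0.26 against -0.11 in ∆hip1. The share at least 2-fold lower was 18.1% against 5% in asf1-1 and 8.81% against 0.714% in ∆hip1. On the quiet strand the medians were 0.55 against 0.42 in asf1-1 and 0.40 against 0.36 in ∆hip1. At like wild-type signal of the quiet strand this order did not hold throughout. In asf1-1 the moderate windows had 0.76 against 0.29 below 6, 0.56 against 0.54 from 6 to 7, 0.56 against 0.52 from 7 to 8, and 0.01 against 0.27 from 8 to the lower cut. In ∆hip1 they had 0.50 against 0.16 below 6, but 0.38 against 0.53, 0.52 against 0.54, and 0.04 against 0.40 at the higher levels. No test of these differences was possible with 1 array per mutant.

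Strands of windows silent on both strands had lower ratios at like wild-type signal. Where the strand's wild-type log2 signal was 7 to 8, the quiet strand of the moderate windows had a median of 0.56 in asf1-1 (176 windows), against -0.32 on the strands of doubly silent windows (120 strands). In ∆hip1 these were 0.52 and -0.28. Below 6 they were 0.76 and 0.06 in asf1-1, and 0.50 and -0.02 in ∆hip1. From 8 to the lower cut they were 0.01 and -0.51 in asf1-1, and 0.04 and -0.45 in ∆hip1. At each of these levels the quiet strand opposite a transcribed one had the higher median in both mutants, and the difference was not tested.

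The quiet strand's ratio was larger where the transcribed strand was brighter, up to a point. With a transcribed strand from the lower cut to 10, the quiet-strand median was -0.03 in asf1-1 and -0.13 in ∆hip1 (112 windows). From 10 to 11 it was 0.33 and 0.26 (139 windows), and from 11 to the upper cut 0.75 and 0.62 (362 windows). Among highly transcribed windows it was 0.61 and 0.56 up to a signal of 14 (570 windows), but 0.07 and 0.05 at 14 and above (262 windows). The quiet strand opposite the brightest transcripts thus had a median ratio near 0 in both mutants. This split was not repeated at like wild-type signal of the quiet strand.

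Dim wild-type signal bounds some of these ratios. On the quiet strand, fewer than 0.5 of the probes were well above background in the wild-type channel in 107 windows of the asf1-1 array and 114 of the ∆hip1 array, and there a higher mutant signal gives only a lower limit of the fold. Their medians were 0.87 in asf1-1 and 0.51 in ∆hip1. In the other 506 and 499 windows the medians were 0.42 and 0.35. There 155 windows were at least 2-fold higher in each mutant (30.6% and 31.1%), beside 13.6% and 12.7% of the whole array.

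The quiet-strand ratio was higher where the same strand of both neighbouring windows was below the lower cut too. This split did not use the other strand of the neighbours, which may be silent as well. Where neither neighbouring window reached the lower cut on the quiet strand, its median ratio was 0.80 in asf1-1 and 0.56 in ∆hip1 (325 windows). Of these windows, 133 (40.9%) and 112 (34.5%) were at least 2-fold higher, beside 13.6% and 12.7% of the whole array. With a neighbour at or above the cut only downstream along the quiet strand, the medians were 0.39 and 0.35 (123 windows). With one only upstream they were 0.29 and 0.25 (115 windows), and between such neighbours on both sides they were -0.04 and -0.06 (48 windows), with 3 and 2 windows at least 2-fold higher. This split uses wild-type signal of the quiet strand, which also chose the windows and divides the ratio, so it was repeated at like signal. From 7 to 8, windows with neither neighbour at the cut had 1.02 in asf1-1 and 1.06 in ∆hip1 (83 windows), and those with 1 or 2 such neighbours had 0.21 and 0.37 (92 windows). From 6 to 7 these were 0.79 and 0.58 against 0.24 and 0.17, and below 6 they were 0.91 and 0.54 against 0.43 and 0.25. From 8 to the lower cut they lay close together, at 0.13 and 0.05 against 0.00 in both mutants. The share at least 2-fold higher did not keep this order throughout. It was 23.0% against 25.6% below 6 in ∆hip1, and 20.8% against 22.5% from 8 to the lower cut in asf1-1. At the other levels it was higher with neither neighbour at the cut. The difference was not tested.

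Filled windows had the higher quiet-strand ratios. In the 195 filled windows the quiet-strand median was 1.1 in asf1-1 and 0.80 in ∆hip1. At least 2-fold higher were 109 (55.9%) and 89 (45.6%), beside 13.6% and 12.7% of the whole array. Filling is set by the signal of the transcribed strand, and the brightness of that strand was not matched here. In the 418 partly filled windows the medians were 0.28 and 0.21. At a like wild-type signal of the quiet strand of 7 to 8, filled windows had 1.16 in asf1-1 and 1.43 in ∆hip1 (56 windows), and partly filled ones 0.27 in both (120 windows). From 8 to the lower cut these were 0.49 in both mutants (31 windows), against -0.03 and -0.04 (98 windows). From 6 to 7 they were 1.20 and 1.14 (40 windows), against 0.29 and 0.19 (125 windows). Below 6 they were 1.09 and 0.63 (68 windows), against 0.55 and 0.27 (75 windows). There the shares at least 2-fold higher in ∆hip1 lay close, at 26.5% and 21.3%. The transcribed strand itself had like medians in filled and partly filled windows, at -0.35 and -0.38 in asf1-1 and -0.32 and -0.22 in ∆hip1.

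**Figure D3:**
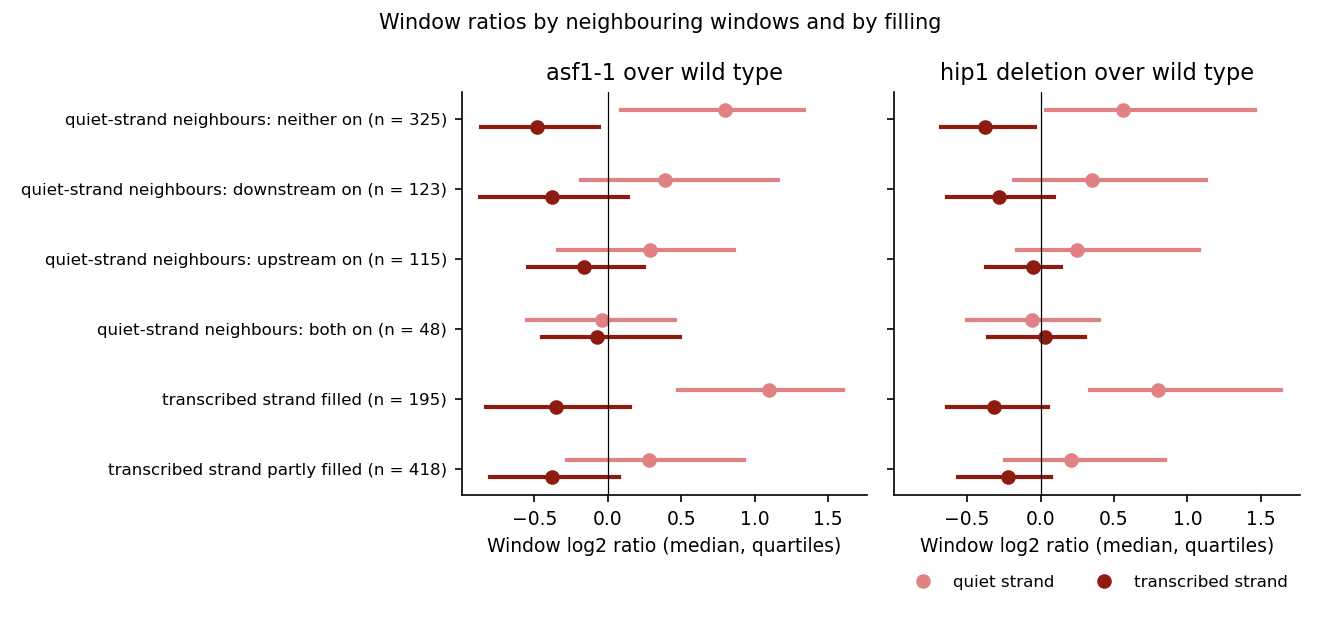
Window log2 ratio of mutant over wild type (x axis; points are medians, lines span the quartiles) for groups of the 613 windows (y axis), on the quiet and the transcribed strand, in asf1-1 (left) and ∆hip1, marked hip1 deletion (right). The quiet-strand median is 0.80 in asf1-1 and 0.56 in ∆hip1 with neither neighbour on, -0.04 and -0.06 with both on, and higher in filled than in partly filled windows.

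For the transcribed strand, windows differed by their neighbour downstream. This split uses wild-type signal of the transcribed strand, which also chose the windows and divides the ratio. It was not repeated at like signal. Where the transcribed strand continued at or above the cut downstream but not upstream, its median was -0.49 in asf1-1 and -0.39 in ∆hip1 (176 windows). With both neighbours on it was -0.44 and -0.30 (318 windows). Where it continued only upstream, so that the transcribed stretch ended in or at the window, the median was 0.08 and 0.06 (78 windows), and for lone windows with neither neighbour on, -0.06 and 0.03 (39 windows). The median was thus below 0 in the middle of transcribed stretches and at 1 of their edges, and near 0 at the other edge. The edges are the starts and the ends as strands are read here, and would change places under the other reading.

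Probe by probe, the quiet-strand ratio was highest toward 1 end of the window, the far end as strands are read here and the near end under the other reading. Aligned at the window start and read along the transcribed strand, the median quiet-strand probe ratio in asf1-1 was 0.01 at -1950 bp, 0.39 at 50 bp and 0.70 at 850 bp, and then 0.17 at 2950 bp. In ∆hip1 it was 0.00, 0.24, 0.54 and 0.12 at the same positions. The transcribed strand was lowest inside the window, at -0.43 in asf1-1 at 850 bp and -0.33 in ∆hip1 at 650 bp, and was within 0.06 of 0 from 1650 bp on in both mutants, apart from 0.064 at 2550 bp in asf1-1. The quiet strand therefore stayed above 0 for longer downstream than the transcribed strand stayed below it. The wild-type signal inside the window chose the windows and also divides these ratios. On the quiet strand of the asf1-1 array its median was 7.17 at 450 bp, against 8.57 at -1950 bp and 8.53 at 2950 bp. A quiet-strand peak and a transcribed-strand low in or near the window are thus favoured by the choice, and the profile is a description.

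**Figure D4:**
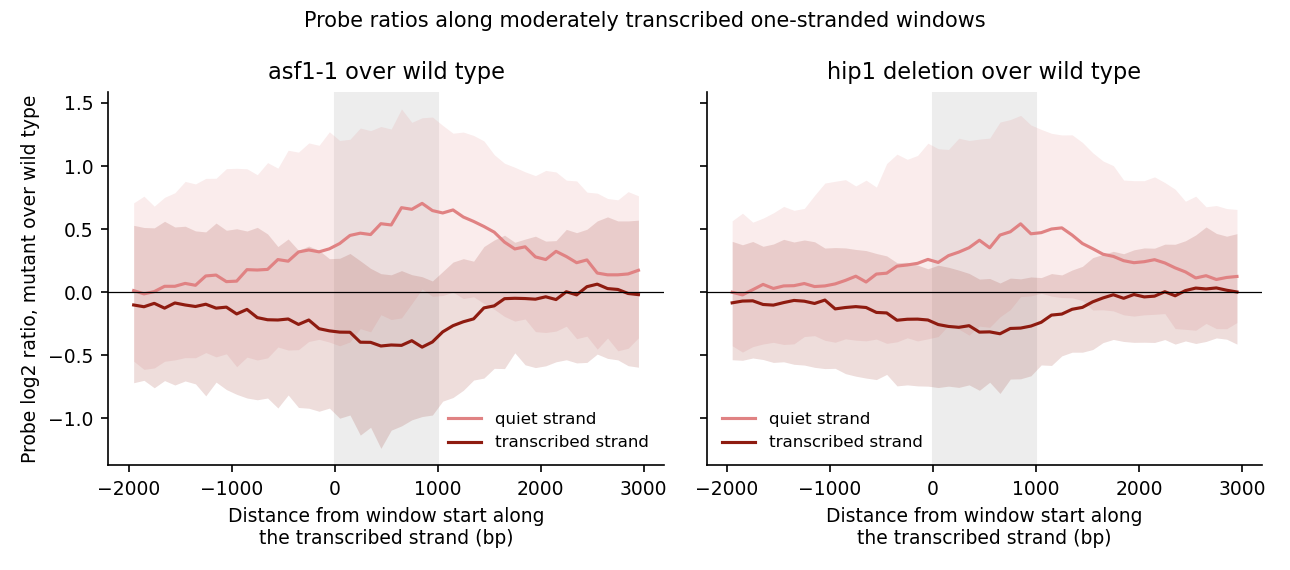
Median probe log2 ratio of mutant over wild type (y axis) by distance from the window start along the transcribed strand in bp (x axis), for the quiet and the transcribed strand of the 613 windows, in asf1-1 (left) and ∆hip1, marked hip1 deletion (right); bands span the quartiles and the grey field is the window. The quiet-strand median peaks at 850 bp, at 0.70 in asf1-1 and 0.54 in ∆hip1, while the transcribed strand lies below 0 across the window. The wild-type signal in the grey field chose the windows and also divides the ratios.

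Along the chromosome the signs of the medians were the same throughout, while the shares past 2-fold varied. In 9 stretches of 250 kb the quiet-strand median ran from 0.28 to 0.68 in asf1-1 and from 0.15 to 0.63 in ∆hip1, and the transcribed-strand median from -0.46 to -0.20 and from -0.42 to -0.18. The quiet strand lay above 0 and the transcribed strand below 0 in each stretch and each mutant. Every stretch holds windows chosen by the same rule from the wild-type signal that divides the ratios. These signs are thus favoured in each stretch by the choice, and the stretches do not check one another. The stretches held between 22 and 97 windows. Quiet strands at least 2-fold higher made up 23.5% to 41.2% in asf1-1 and 14.8% to 34.1% in ∆hip1. Transcribed strands at least 2-fold lower made up 3.7% to 25.6% in asf1-1 and 0% to 13.9% in ∆hip1.

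When each channel was cut at its own median and 75th percentile, fewer windows came out one-stranded in the mutant channels. Over the 1901 windows, one-stranded windows made up 62.4% in the asf1-1 channel, against 76.9% in the wild-type channel of the same array, and 63.7% in the ∆hip1 channel, against 75.6%. The strands of a window were 2.33 log2 units apart at the median in the asf1-1 channel, against 4.89 in its wild-type channel, and 3.01 in the ∆hip1 channel, against 5.13. These shares use all windows and do not rest on the choice of members, but each compares a red with a green channel.

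Of the 613 windows, 284 (46.3%) kept their class and strand in the asf1-1 channel and 335 (54.6%) in the ∆hip1 channel. In the wild-type channels of the same arrays 95.8% and 93.6% did. Those channels chose the windows, so fewer crossings of a cut there were built in. The quiet strand reached the channel's own median in 129 (21.0%) in asf1-1 and 108 (17.6%) in ∆hip1. In the wild-type channels it did in 1.14% and 2.45%, and among highly transcribed windows in the mutant channels in 13.0% and 11.1%. The transcribed strand fell short of the channel's median in 172 (28.1%) and 142 (23.2%), beside 0.979% and 1.79% in the wild-type channels. In 33 windows of the asf1-1 channel and 18 of the ∆hip1 channel only the strand that was quiet in wild type was at or above the median, so the brighter strand was the other one. This was so in 0 windows of either wild-type channel. Before normalization the quiet strand had a median log2 signal of 9.82 in the asf1-1 channel, against 7.28 in its wild-type channel, and 8.30 in the ∆hip1 channel, against 6.72. The transcribed strand had 11.45 against 11.47, and 10.59 against 11.14. The raw quiet strand was thus brighter in the mutant channels and the raw transcribed strand was not, while the median raw log2 ratio over all probes was itself 0.84 for asf1-1 and 0.14 for ∆hip1.

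Named windows with the quiet strand higher and the transcribed strand lower included 2 stretches of adjoining windows. From 2168001 to 2171000, 3 windows were transcribed on the plus strand in wild type. The minus strand from 2168001 to 2169000 had normalized log2 signals of 12.58 in asf1-1 and 12.55 in ∆hip1, against 8.75 and 8.74 in wild type on the same arrays. Its ratio was 3.52 ± 0.34 in asf1-1 and 3.64 ± 0.30 in ∆hip1 (SD over 10 probes). Its lowest probe ratios were 3.05 and 3.01, so every probe of the window was over 2-fold brighter than wild type.

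The plus strand of the same window went the other way. It had 9.0 in asf1-1 and 9.62 in ∆hip1, against 11.41 and 11.32 in wild type, a ratio of -2.41 ± 0.67 and -1.66 ± 0.33 (SD over 10 probes). In the next 2 windows, from 2169001 and 2170001, the minus strand had 1.90 and 2.82 in asf1-1 and 2.18 and 3.71 in ∆hip1. The plus strand there had -1.43 and -1.04 in asf1-1 and -1.33 and -0.82 in ∆hip1. In both mutants the plus-strand deficit was greatest in the window from 2168001 and smallest in that from 2170001.

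The other stretch lay from 2600001 to 2602000, on opposite strands. The quiet plus strand from 2601001 to 2602000 had 10.52 in asf1-1 and 11.27 in ∆hip1, against 8.20 and 7.98 in wild type, with ratios of 2.72 ± 0.75 and 3.42 ± 0.54 (SD over 10 probes). The transcribed minus strand had 8.45 and 8.28, against 10.91 and 10.40, with ratios of -2.48 ± 0.27 and -1.94 ± 0.36 (SD over 10 probes). The window before it, from 2600001, had 2.52 and 3.10 on the plus strand and -1.84 and -1.45 on the minus strand. In both mutants the plus strand was thus the brighter of the window.

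Beyond that stretch the direction on the plus strand turned. The plus strand from 2603001 to 2604000, there the transcribed strand, was the lowest transcribed strand of all, at 8.54 in asf1-1 and 8.62 in ∆hip1, against 10.77 and 10.58 in wild type. Its ratios were -2.52 ± 1.05 and -2.45 ± 1.1 (SD over 9 probes), with probes from -3.09 to -0.37 in asf1-1. The window between, from 2602001, had a plus-strand ratio of -1.54 ± 2.07 in asf1-1 and -1.35 ± 2.36 in ∆hip1, a scatter wider than the ratios themselves.

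**Figure D5:**
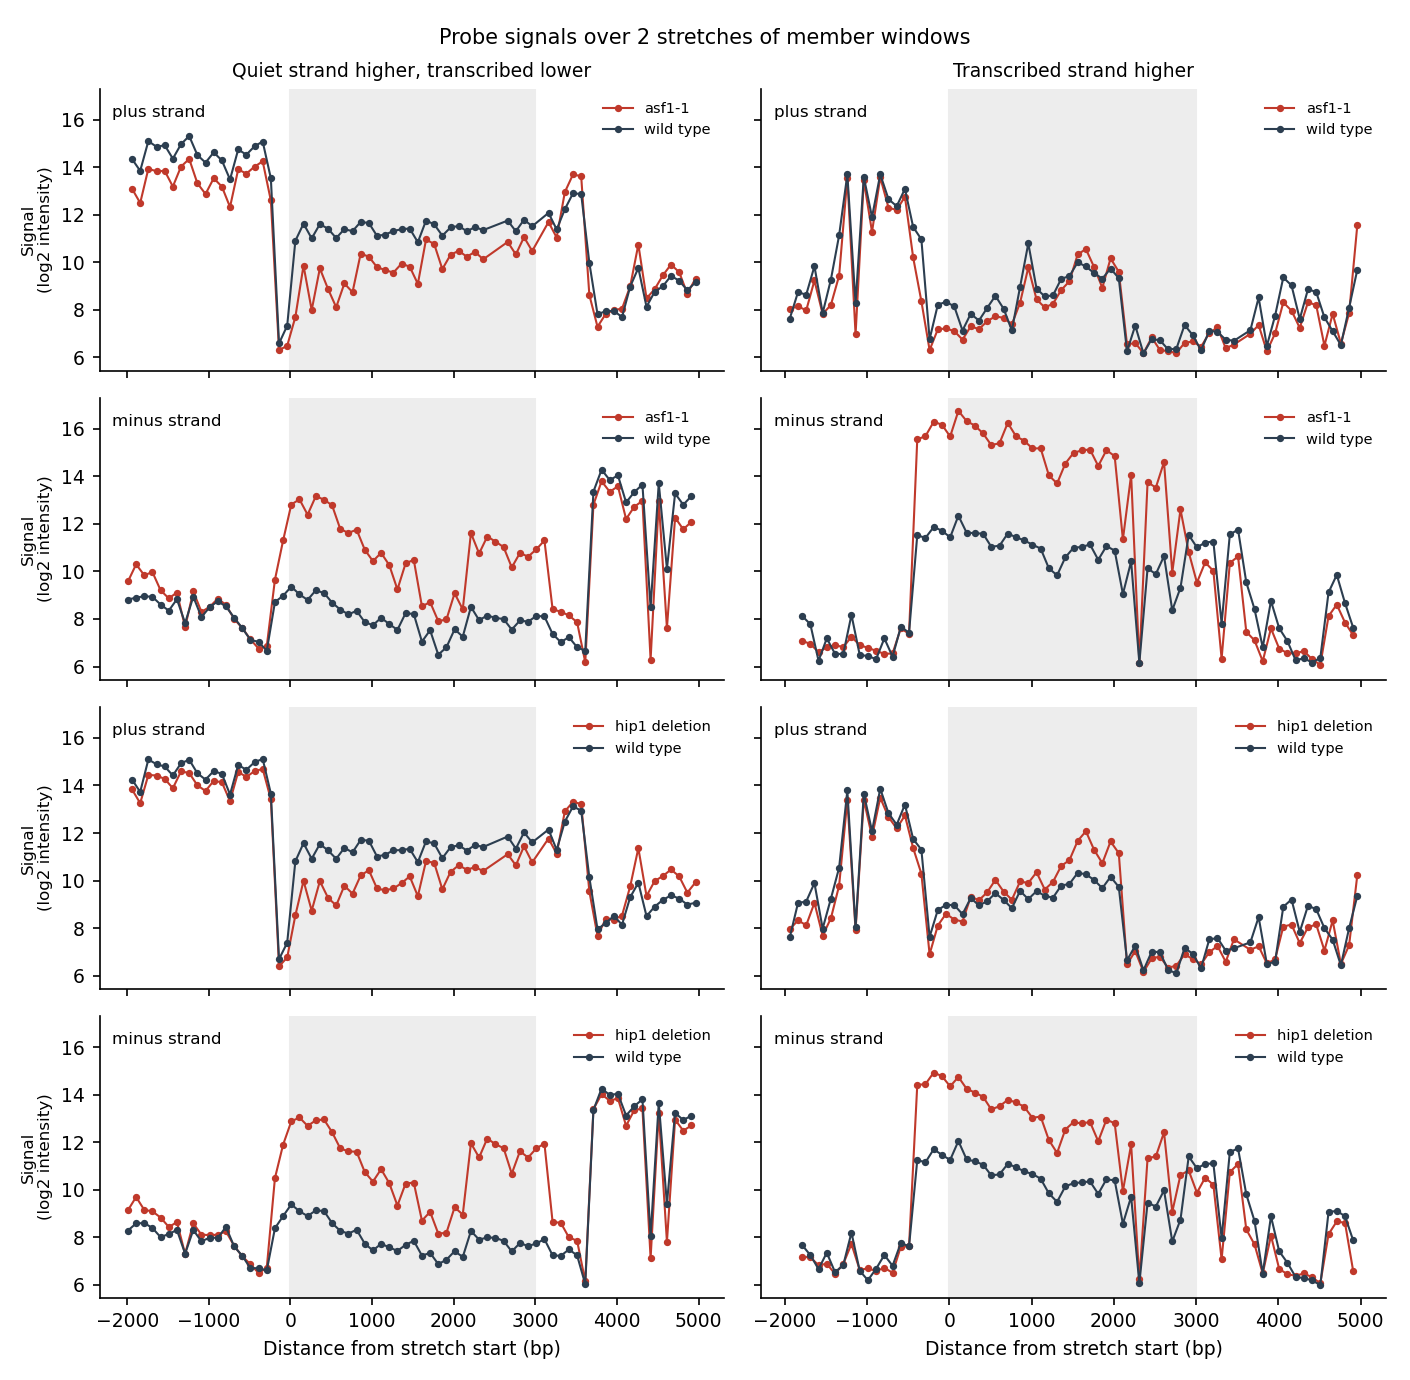
Normalized log2 probe signal (y axis) by distance from the start of a stretch in bp (x axis) for each mutant (red) and wild type on the same array (dark), by strand, with the 3 windows of the stretch in grey. Left, the stretch from 2168001: the minus strand is brighter and the plus strand dimmer in both mutants. Right, the stretch from 1950001: the minus strand is brighter in both, by 4.30 in asf1-1 and 2.82 in ∆hip1 in the first window.

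The highest quiet-strand ratios lay near 3.03 Mb, between 3025001 and 3028000 on the plus strand. The window from 3025001 had 11.83 in asf1-1 and 12.86 in ∆hip1, against 8.29 and 8.27 in wild type, a ratio of 3.55 ± 1.83 and 4.88 ± 2.00 (SD over 7 probes). The wide scatter came with probes as low as -0.43 in asf1-1 and 0.15 in ∆hip1, next to others at 4.53 and 5.65. The windows from 3026001 and 3027001 had 2.76 ± 0.59 and 3.35 ± 0.60 in asf1-1 and 3.97 ± 0.86 and 3.5 ± 0.51 in ∆hip1 (SD over 10 probes). Unlike at 2168001, the transcribed minus strand of the first window did not move past the scatter of its probes, with 0.08 ± 0.51 and -0.04 ± 0.27. From 3027001 it had -0.94 ± 0.31 and -0.80 ± 0.30.

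A lone quiet strand of this size was the plus strand from 1485001 to 1486000. It had 11.42 in asf1-1 and 10.69 in ∆hip1, against 7.91 and 7.71 in wild type, and ratios of 3.39 ± 0.80 and 2.93 ± 0.51 (SD over 10 probes). Its transcribed strand had -1.45 and -1.34. Both strands were past 2-fold, in opposite directions, in both mutants.

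The minus strand from 1950001 to 1953000 held the highest transcribed-strand ratios in asf1-1. In the first window the signal was 15.75 in asf1-1 and 13.84 in ∆hip1, against 11.51 and 11.06 in wild type, a 19.6-fold and a 7.05-fold excess. The ratios were 4.30 ± 0.19 and 2.82 ± 0.13, then 3.99 ± 0.10 and 2.44 ± 0.18 from 1951001 (SD over 10 probes), and 3.63 ± 1.55 and 1.88 ± 0.94 from 1952001 (SD over 9 probes). In the first windows the probes lay close together, and all were higher in asf1-1 than in ∆hip1. The quiet plus strand had ratios of -0.54, -0.28 and -0.26 in asf1-1, and the minus strand of the next window, from 1953001, was lower, at -1.24 ± 0.34 and -0.90 ± 0.26 (SD over 9 probes).

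Other transcribed strands that stood high were few. In ∆hip1 the highest value of all, 3.02, was on the minus strand from 2014001, which fell outside the naming rule because 7 of its 9 probes had that sign. At 2827001 the minus strand had 3.34 ± 0.51 in asf1-1 and 1.97 ± 0.36 in ∆hip1 (SD over 10 probes). At 1995001 the minus strand had 1.61 ± 1.01 and 2.26 ± 1.39 (SD over 9 probes), while its quiet plus strand was among the lowest quiet strands in asf1-1, at -1.48 ± 0.17, with -0.90 ± 0.31 in ∆hip1. On the plus strand from 1216001 the ratio was 1.91 ± 0.42 and 2.20 ± 0.44 (SD over 10 probes).

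Other low transcribed strands lay at separate loci. The minus strand from 2996001 had -2.42 ± 1.33 in asf1-1 and -1.89 ± 0.98 in ∆hip1, with 1.26 and 1.97 on its quiet strand. That from 2901001 had -2.07 ± 0.63 and -2.03 ± 0.86 (SD over 9 probes), with 1.01 and 1.02 on its quiet strand. That from 1779001 had -1.36 ± 0.99 and -2.09 ± 1.07 (SD over 10 probes), but there the quiet strand was lower too, at -0.77 and -0.98.

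Quiet strands that were lower in the mutants were rarer and lay nearer 0. The minus strand from 2023001 had -2.43 ± 0.73 in asf1-1 and -1.03 ± 0.58 in ∆hip1, and the plus strand from 2952001 -1.88 ± 0.96 and -1.30 ± 1.03 (SD over 10 probes). The quiet strand from 2977001, also minus, had -1.51 ± 0.52 and -1.03 ± 0.41. In ∆hip1 the plus strand from 1552001 was lowest, at -1.75 ± 0.28, with -0.88 ± 0.35 in asf1-1. Next by the naming rule came the minus strands from 2304001 (-1.24 ± 0.41, with -0.53 ± 0.26 in asf1-1), 1268001 (-1.22 ± 0.60, with -1.43 ± 0.46) and 1475001 (-1.21 ± 0.35, with -0.71 ± 0.20).

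The mutants differed little from each other at most of these windows. The ratio in asf1-1 minus that in ∆hip1 had a median of -0.03 on the quiet strand (quartiles -0.27 and 0.22) and -0.09 on the transcribed strand (-0.31 and 0.13). On the quiet strand asf1-1 exceeded ∆hip1 at least 2-fold in 9 windows (1.47%), beside 1.44% over the whole array, and was at least 2-fold lower in 15 (2.45%), beside 1.48%. On the transcribed strand 15 were higher (2.45%) and 6 lower (0.979%). These shares are near those of the array, and no window was at least 2-fold higher in 1 mutant and at least 2-fold lower in the other on either strand. As both ratios may divide by 1 wild-type extract, their likeness is not read further.

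Quiet strands higher in asf1-1 than in ∆hip1 were found on the minus strand from 2633001 and the plus strand from 1725001. The first had 11.03 in asf1-1 and 8.26 in ∆hip1, against 8.51 and 8.50 in wild type, with ratios of 2.52 ± 1.75 and -0.05 ± 0.40 (SD over 9 probes). The other had 11.88 and 9.02, against 8.64 and 8.40, with ratios of 3.24 ± 0.49 and 0.68 ± 0.30 (SD over 9 probes). The wild-type signals of the arrays were close at both, and the mutant signals were far apart.

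Another such place was the minus strand from 1215001 to 1217000. The first of its windows had 2.96 ± 0.51 in asf1-1 and 1.11 ± 0.42 in ∆hip1, and the next 1.69 ± 0.89 and -0.50 ± 0.37 (SD over 10 probes). The plus strand of these windows, which is the transcribed one, was higher in both mutants: 1.13 ± 0.44 and 1.91 ± 0.42 in asf1-1, and 1.38 ± 0.19 and 2.20 ± 0.44 in ∆hip1. In asf1-1 both windows are thus among the 4 in which both strands were at least 2-fold higher.

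On the transcribed strand the difference between the mutants was 1.75 at the minus strand from 1952001, given above, and 1.73 at the plus strand from 1208001. The plus strand from 1208001 had 2.57 ± 0.12 in asf1-1 and 0.84 ± 0.15 in ∆hip1 (SD over 10 probes), far apart beside the scatter of its probes. The plus strand from 3011001 had 1.28 ± 0.90 and -0.42 ± 0.44. In the opposite direction, the plus strand from 2226001 had -2.01 ± 0.71 in asf1-1 and -0.57 ± 0.48 in ∆hip1. That from 2204001 had -0.56 ± 1.39 and 0.61 ± 0.65. These SDs are over the probes of each array, and the spread of the difference probe by probe was not taken.

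Quiet strands lower in asf1-1 than in ∆hip1 differed by less, with named differences of -1.41 to -1.31. The minus strand from 1845001 had 0.75 ± 1.13 in asf1-1 and 2.07 ± 1.26 in ∆hip1, and the plus strand from 1951001, opposite the transcribed strand described above, had -0.28 ± 0.45 and 1.03 ± 0.45 (SD over 10 probes). The plus strand from 3025001 also belongs here, with a difference of -1.33, beside SDs of 1.83 and 2.00 over its probes on each array. Both arrays carry the same probes, so these SDs do not measure the spread of the difference. These windows are single loci on 1 array per mutant, and their differences were not tested.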

How the data were processed

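RNA of 2 samples was measured on arrays of both colours. The authors extracted the intensity of each spot with Agilent's Feature Extraction 10.1.1.1, per the file headers. Median signals and local backgrounds are deposited without normalization. The authors' processed intensities and log10 ratio are background-subtracted and dye-normalized. The deposited p-value describes 1 spot. The log2 series table deposited by the authors matched the scanner ratio within 0.001, or held 0 where that p-value was above 0.05, on 100% of probes, which settles its scale and direction. Median signals were corrected with normexp (offset 50) and loess within each array in limma 3.58.1 (R 4.3.3), with the 1227 control spots and outlier spots at weight 0. The 850 outlier probes were left out, and probes well above background in at least 1 of 4 channels (40664) were used. Channel signals are loess values after quantile normalization of mean intensity between arrays. Windows needed 3 probes per strand.

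The members, lists and splits were chosen with earlier results of these data known, and the splits of neighbours and filling at like signal were added last. Named windows are the 4 highest and 4 lowest per array and strand (at least 5 probes, with 80% of the same sign), the 4 largest differences between mutants in each direction per strand, those next to the cuts, and windows adjoining them, which were chosen after their values were seen. The plan to name genes from probe sequences was dropped, as sequences and genes were not analysed here. The SD given is over the probes of a window and covers spot differences only. The steps were tested on simulated data, but a pass was required only of windows with brighter signal. Ratios of dim quiet strands were not held to that test. Tables and plots were made with pandas 2.3.3, matplotlib 3.10.9 and numpy 2.4.6 under Python 3.11.15.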

Additional observations from a re-analysis of the deposited data

How the results depend on the processing

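No paired analysis was possible because there is only 1 array of each mutant. Choosing windows from a mutant channel, and the alternatives of the comparison with doubly silent windows, were added after seeing the data. Medians were taken as moved past 0.25 (log2) and counts past 1.5 times. Under all alternatives run, the quiet-strand median stayed above 0 (0.399 to 1.33 in asf1-1, 0.239 to 0.925 in ∆hip1) and the transcribed-strand median below 0 (-0.74 to -0.233, and -0.573 to -0.15). The quiet strand exceeded doubly silent windows by 0.614 to 1.20 in asf1-1 and 0.493 to 1.07 in ∆hip1, highest with the scanner log ratio. For the 38 named strands, 601 values stayed within 1 SD of their probes, 81 did not, and 0 of those past 2-fold changed sign. The number of windows stayed between 439 and 614. Median centring moved the median of all windows to 0.105 in asf1-1. For what follows, the cause was not tested. Probes dim in the wild-type channel limit the quiet-strand ratios.

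The scanner log ratio gave quiet-strand medians of 0.99 in asf1-1 and 0.691 in ∆hip1, a transcribed-strand median of -0.63 in asf1-1, strand differences of 1.51 and 1.23, 304 quiet strands higher in asf1-1, 35 and 58 lower, and 179 and 141 transcribed strands lower. The series table gave 0.815 on the quiet strand in asf1-1, strand differences of 1.48 and 1.06, 33 and 53 quiet strands lower, and 178 and 138 transcribed strands lower. Median centring gave 1.33 and 0.925 on the quiet and -0.74 and -0.573 on the transcribed strand, differences of 2.02 and 1.53, 360 and 293 quiet strands higher, 6 and 3 lower, and 189 and 111 transcribed strands lower. Windows chosen from the mutant channel of the other array gave differences of 0.629 and 0.458, 106 and 83 quiet strands higher, 41 and 11 transcribed strands lower, and 36 higher in ∆hip1. Probes above background in all 4 channels gave 36 and 24 quiet strands lower, the mean over probes 11 in asf1-1, and the other array's wild type 93 transcribed strands lower in ∆hip1. At 1.5-fold there were 57 (9.3%) and 35 (5.71%) transcribed strands higher, beside 24.9% and 21.2% of the whole array. There were 217 and 158 lower, and 61 and 50 quiet strands lower, with shares given above. For the other alternatives the whole-array shares were not taken, so their counts show only how far each moved from the main setting.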
